A study of Mus musculus with 5 samples.

Results

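Keratinocyte differentiation is driven by a small set of transcription factors, and 10 of their genes are described here in mouse hair follicle stem cells: Grhl1, Grhl2, Grhl3, Ovol1, Ovol2, Klf4, Klf5, Zfp750, Elf3 and Gata3. They were taken by symbol from a deposited table of 55357 genes. Each symbol matched 1 row, and all 10 had enough reads to be among the 15665 genes tested. The study used bulge stem cells of mouse back skin at postnatal day 75, sorted as EpCAM-positive, Sca1-negative, CD34-positive cells with high α6-integrin. Both groups of mice were Ring1a-/- and Ring1b flox/flox, and both had 1% RU-486 applied to the skin for 10 days from day 50. Control (2 libraries, replicates 1 and 3) carried no Cre. PRC1 i2KO (3 libraries) also carried K15-CrePR1, a Cre recombinase under a keratin 15 promoter that RU-486 switches on, so recombination is limited to cells where that promoter is active. Ring1a and Ring1b are the catalytic subunits of Polycomb repressive complex 1 (PRC1), which marks histone H2A with ubiquitin. Since Ring1a was missing from every mouse, Ring1b deletion and Cre itself cannot be told apart in this comparison.

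Grainyhead-like factors (Grhl1, Grhl2 and Grhl3) bind genes of desmosomes, tight junctions and the cornified envelope, the protein shell of the dead outer cell layer. The zinc finger proteins Klf4 and Zfp750 act late in differentiation, Klf5 is linked to dividing basal cells, and Ovol1 and Ovol2 restrain proliferation and mesenchymal genes. Elf3 is an epithelial ETS factor, and Gata3 is known in the hair follicle for the inner root sheath lineage. In the intact follicle, bulge stem cells rest between growth phases and do not form the cornified layers in which most of these factors are known to act.

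The libraries held between 8270419 and 32463173 estimated reads, the extremes being Control replicates 1 and 3. Whether each library is a different mouse is not stated, and every p-value here measures library-to-library spread, possibly technical. Levels in CPM are counts scaled to the library total over tested genes, as adjusted by a scaling factor (TMM). Reads of Rnf2, the gene of Ring1b, gave 67.9 and 57.7 CPM in Control replicates 1 and 3. In PRC1 i2KO replicates 1, 2 and 3 they gave 48.1, 46.6 and 50.2 CPM. Ring1, the gene of Ring1a, gave between 19.6 and 30.3 CPM in all 5 libraries. Reads summed over a gene do not show whether an exon was removed, so neither gene checks the genotype. Cd34, a gene of the sort gate, stood at 1549 and 1697 CPM in Control and at 11.0, 12.3 and 37.2 CPM in PRC1 i2KO. The labelled bulge identity thus did not hold for the RNA of this marker in the latter. The gate used CD34 protein, which these data do not measure. The bulge keratin gene Krt15 lay between 9893 and 11134 CPM in Control and between 3076 and 4286 CPM in PRC1 i2KO.

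Of the 10 factor genes, 6 rose in PRC1 i2KO (Grhl1, Grhl3, Ovol1, Klf5, Zfp750 and Elf3), 2 fell (Klf4 and Grhl2) and 2 did not pass the test (Ovol2 and Gata3). A gene was called when its adjusted p in edgeR's quasi-likelihood test was under 0.05, with adjustment over all genes tested. By the same rule 33.9% of all tested genes were called, 18.8% higher and 15.1% lower. The median log2 fold change of the 10 genes was 1.60, beside -0.01 over all tested genes. In each of the 10 genes the libraries of the groups did not overlap in CPM, as was true of 59.5% of all tested genes. In bulk RNA of sorted cells, more cells of a type that holds a transcript and more transcript per cell cannot be told apart. The plot of CPM by library shows all 50 values.

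**Figure D1:**
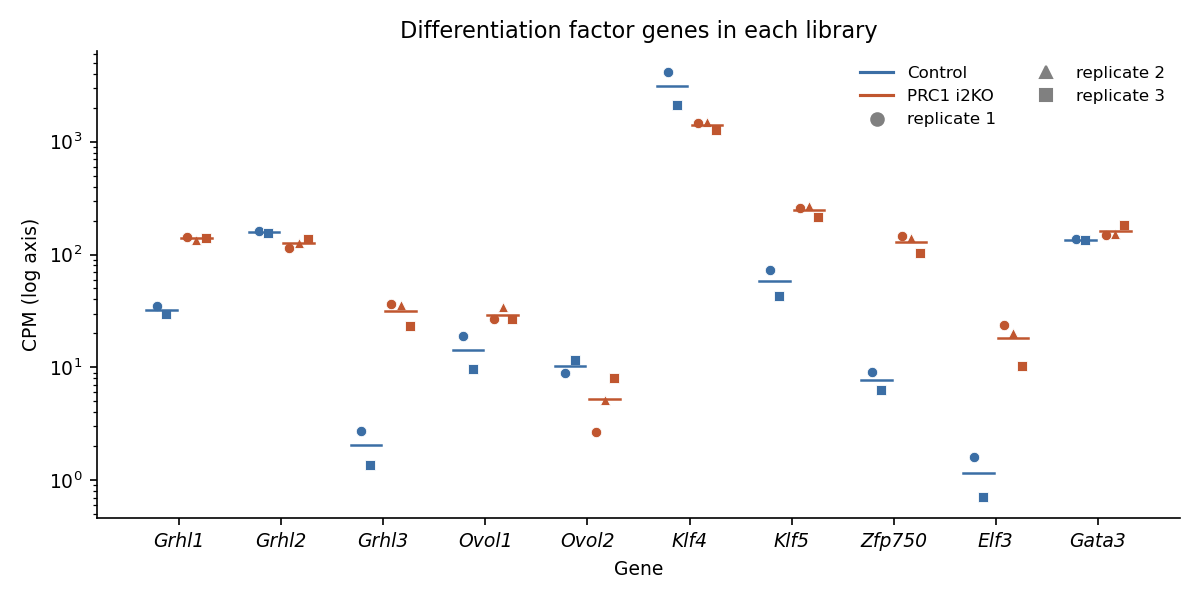
CPM on a log axis of the 10 factor genes in each library, with Control in blue, PRC1 i2KO in orange, marker shape for the replicate number and a line at each group's mean. Zfp750, Grhl3 and Elf3 lie more than a factor of 10 higher in PRC1 i2KO on average, Klf4 has the highest level in every library, and no gene has overlapping groups.

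The starts of several of these genes are shown because the genes moved together or stood at opposite ends of the range. RefSeq promoter sequences (build GRCm38.p6, 250 bases before to 50 after the start) were at hand for 6 of the 10 genes: Grhl1, Grhl3, Ovol2, Klf4, Elf3 and Gata3. Capitals mark matches on either strand to 6 short motifs, which were picked after these sequences had been read. The Grainyhead-like core was searched as ACCGGT. The box bound by Klf proteins was searched as CACCC. The Ovol core was taken as CCGTTA, and the E-box of the Snai and Zeb repressors as CACCTG. The Gata site was written AGATAA, and the ETS site GGAAGT. Matches of different motifs may overlap. In the 5′ to 3′ direction, Grhl3 (chr4:135573583-135573882, minus strand) and Elf3 (chr1:135258423-135258722, minus strand), whose levels rose by nearly the same factor, read as follows, with Grhl1 (chr12:24572037-24572336, plus strand, the first of 2 starts listed) and Klf4 (chr4:55532426-55532725, minus strand) below them.
Grhl3: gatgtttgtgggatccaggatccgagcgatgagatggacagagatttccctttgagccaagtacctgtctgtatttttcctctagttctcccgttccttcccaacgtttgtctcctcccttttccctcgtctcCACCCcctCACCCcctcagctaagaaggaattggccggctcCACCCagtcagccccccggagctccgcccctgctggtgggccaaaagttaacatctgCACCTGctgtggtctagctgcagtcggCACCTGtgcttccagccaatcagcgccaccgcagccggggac
Elf3: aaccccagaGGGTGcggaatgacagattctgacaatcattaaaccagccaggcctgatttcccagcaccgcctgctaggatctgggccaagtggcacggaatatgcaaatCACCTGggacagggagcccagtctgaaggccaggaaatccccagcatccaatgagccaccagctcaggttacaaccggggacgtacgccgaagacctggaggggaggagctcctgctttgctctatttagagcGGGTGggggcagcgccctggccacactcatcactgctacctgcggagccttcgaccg
Grhl1: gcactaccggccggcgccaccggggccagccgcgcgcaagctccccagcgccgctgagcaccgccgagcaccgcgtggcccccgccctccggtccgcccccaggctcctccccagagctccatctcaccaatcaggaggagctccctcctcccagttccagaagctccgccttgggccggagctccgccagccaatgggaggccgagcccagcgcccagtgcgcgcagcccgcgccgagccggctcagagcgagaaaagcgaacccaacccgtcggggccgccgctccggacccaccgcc
Klf4: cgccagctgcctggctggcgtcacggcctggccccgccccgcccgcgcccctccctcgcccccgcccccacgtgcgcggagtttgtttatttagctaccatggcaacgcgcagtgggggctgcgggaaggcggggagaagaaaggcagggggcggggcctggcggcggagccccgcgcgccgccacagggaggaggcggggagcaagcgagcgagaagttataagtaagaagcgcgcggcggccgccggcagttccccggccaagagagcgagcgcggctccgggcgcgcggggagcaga
Grhl3 held 3 CACCC and 2 CACCTG matches, and Elf3 held 2 CACCC matches and 1 CACCTG match. Of the windows not printed, Gata3 held 3 CACCC matches and the second window of Grhl1 held 2. Ovol2 held 2 CACCC matches and 1 GGAAGT match. Among 32817 mouse promoters of the same length, CACCC was found in 57.5%, CACCTG in 20.2% and GGAAGT in 23.8%. No motif matched in the window of Klf4 or in the first window of Grhl1. These 2 windows were instead dense in CG dinucleotides, with 40 in Klf4 and 35 in Grhl1 against a median of 7 and an upper quartile of 20 over all promoters, while Grhl3 and Elf3 held 12 each. Ovol2 held 25, Gata3 held 22 and the second window of Grhl1 held 0. The core ACCGGT, found in 2.33% of promoters, was in none of the windows of these 6 genes. Matches describe the letters of these windows only, and binding was not measured.

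The Grainyhead-like family changed in opposite directions. Grhl1, which is known to act on desmosomal cadherin genes, gave 35.1 and 29.5 CPM in Control replicates 1 and 3 and 144, 134 and 140 CPM in PRC1 i2KO replicates 1, 2 and 3. The libraries within each group were close together and far from those of the other. Grhl1 (ENSMUSG00000020656) rose 4.34-fold, or 2.12 on the log2 scale (SE 0.12, edgeR adjusted p = 2.43e-06). By adjusted p it ranked 65 among all tested genes, and the estimate stayed between 1.99 and 2.23 when any 1 library was left out.

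Grhl3, which is needed for the skin barrier, gave 2.71 and 1.37 CPM in Control and 36.7, 35.9 and 23.1 CPM in PRC1 i2KO. Those levels rest on 22 and 44 reads in the controls and on 354, 763 and 438 reads in the others. The lowest PRC1 i2KO library, replicate 3, was still well above both controls. Grhl3 (ENSMUSG00000037188) rose 17.6-fold (log2 fold change 4.14, SE 0.36, edgeR adjusted p = 4.52e-05), and the log2 value was 3.55 without Control replicate 3, the shallowest estimate, and 4.53 without Control replicate 1, the steepest.

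Grhl2, the family member that maintains epithelial junction genes, gave 160.5 and 156 CPM in Control and 113, 127 and 138 CPM in PRC1 i2KO. Every PRC1 i2KO library lay below both controls, replicate 3 by the smallest margin. Grhl2 (ENSMUSG00000022286) fell 1.26-fold (log2 fold change -0.33, SE 0.11, edgeR adjusted p = 0.0427). That call sat at the threshold. It was lost without Control replicate 1 (edgeR adjusted p = 0.166), without Control replicate 3 (0.138), without PRC1 i2KO replicate 1 (0.161) and without PRC1 i2KO replicate 2 (0.119), and it was not made by DESeq2 (adjusted p = 0.0518). Grhl2 shares its locus with Gm16136, a transcript on the other strand, which gave 27.1 and 27.7 CPM in Control and 44.8, 32.9 and 48.3 CPM in PRC1 i2KO (edgeR adjusted p = 0.0247). Whether reads were counted by strand is not given in the sources used here, so the share of each gene at that locus is uncertain.

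Per unit of gene length, in TPM (the authors' length-scaled unit), the balance within the family turned. Grhl2 made up 80.4% and 81.5% of the summed TPM of the 3 genes in Control replicates 1 and 3, and 34.4%, 39.1% and 43.8% in PRC1 i2KO replicates 1, 2 and 3. Grhl1 went from 17.9% and 17.5% to 49.8%, 45.5% and 46.6%. Grhl3 went from 1.74% and 0.988% to 15.8%, 15.4% and 9.65%. Grhl1 was thus the leading family member by TPM in each PRC1 i2KO library and Grhl2 in each control. The family's summed TPM was 103 and 92.1 in Control and 135, 137 and 145 in PRC1 i2KO. The ratio of Grhl2 to Grhl1 was 4.58 ± 0.11 in Control (SD, n = 2) and 0.829 ± 0.13 in PRC1 i2KO (SD, n = 3; exact two-sided permutation p = 0.2). That is the smallest p that 10 splits of 5 libraries allow, so no ratio of this kind could pass.

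**Figure D2:**
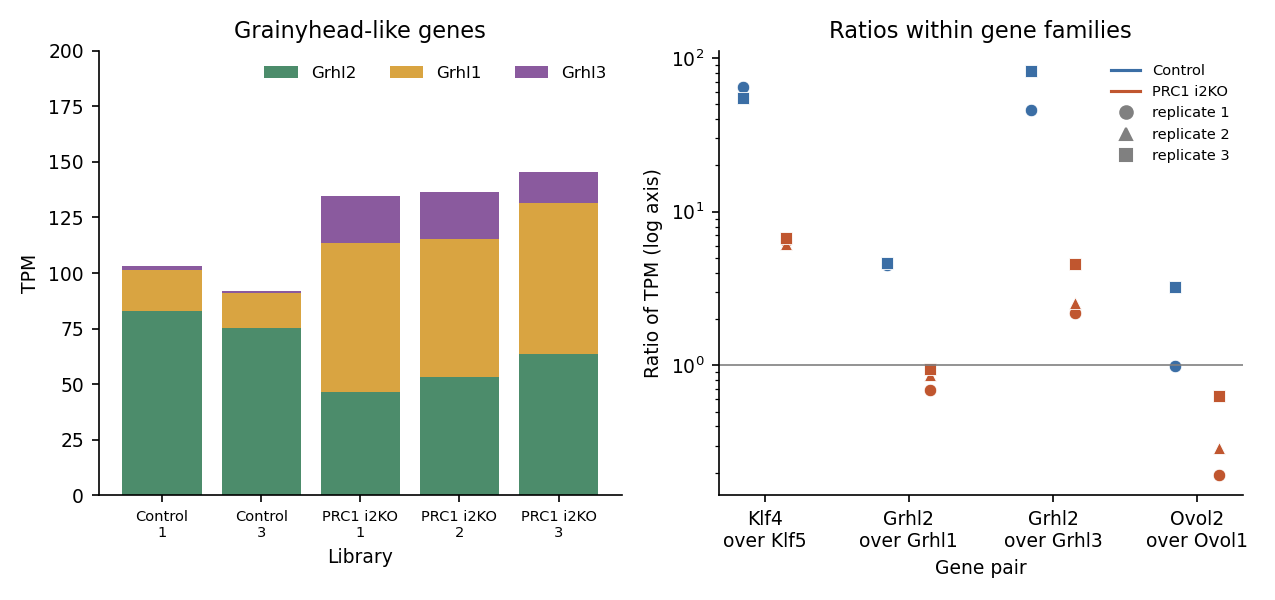
Left, stacked bars of the TPM of Grhl2, Grhl1 and Grhl3 in each library; right, ratios of TPM between family members on a log axis, 1 point per library, with a line at a ratio of 1. Grhl2 makes up most of the bar in Control and less than Grhl1 in each PRC1 i2KO library, and the ratio of Klf4 to Klf5 goes from 55.3 and 64.9 in Control to between 6.15 and 6.76.

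The 2 Krüppel-like factors also moved apart. Klf4, which drives barrier formation, had the highest level of the 10 genes in every library. Klf4 gave 4145 and 2122 CPM in Control replicates 1 and 3 and 1474, 1479 and 1272 CPM in PRC1 i2KO replicates 1, 2 and 3. The controls themselves differed widely, with replicate 1 far above replicate 3, whereas the PRC1 i2KO libraries were close together. Klf4 (ENSMUSG00000003032) fell 2.22-fold (log2 fold change -1.15, SE 0.27, edgeR adjusted p = 0.0209). Dropping Control replicate 1 gave -0.59, and dropping Control replicate 3 gave -1.56, both called. The call was lost without PRC1 i2KO replicate 3 (log2 fold change -1.08, edgeR adjusted p = 0.197). By mean TPM Klf4 ranked 51 among 22958 genes with reads in Control and 178 in PRC1 i2KO.

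Klf5 gave 72.6 and 43.0 CPM in Control and 260, 269 and 214 CPM in PRC1 i2KO. As with Klf4, Control replicate 1 was above replicate 3, but both lay far below the lowest PRC1 i2KO library. Klf5 (ENSMUSG00000005148) rose 4.33-fold (log2 fold change 2.11, SE 0.24, edgeR adjusted p = 0.000863; between 1.77 and 2.52 with any 1 library left out). Klf4 made up 76.4% and 70.4% of the summed TPM of all 17 Klf genes in Control and between 46.4% and 50.4% in PRC1 i2KO. Klf5 made up 1.18% and 1.27% in Control and between 7.30% and 7.55% in PRC1 i2KO. The ratio of Klf4 to Klf5 by TPM was 60.1 ± 6.74 in Control (SD, n = 2) and 6.45 ± 0.30 in PRC1 i2KO (SD, n = 3; exact two-sided permutation p = 0.2, the smallest possible). Klf4 and Klf5 each differed between the controls by a similar factor, so their ratio varied less within Control than either level did.

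Zfp750, a zinc finger gene of terminal differentiation known to lie downstream of p63, gave 9.11 and 6.34 CPM in Control and 145, 140 and 104 CPM in PRC1 i2KO. PRC1 i2KO replicate 3 was the lowest of its group, as for Grhl3. Zfp750 (ENSMUSG00000039238) rose 17.5-fold (log2 fold change 4.13, SE 0.22, edgeR adjusted p = 6.86e-06; between 3.82 and 4.35 with any 1 library left out). Zfp750 lies within Tbcd, a tubulin folding gene on the other strand, which gave 33.6 and 46.5 CPM in Control and 46.1, 41.5 and 48.9 CPM in PRC1 i2KO (edgeR adjusted p = 0.457). In mean TPM Zfp750 stood at rank 11179 of the 22958 genes with reads in Control and at 2244 in PRC1 i2KO, the largest climb in rank of the 10.

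Elf3, the epithelial ETS factor, gave 1.60 and 0.715 CPM in Control, on 13 and 23 reads, and 23.7, 20.3 and 10.3 CPM in PRC1 i2KO. PRC1 i2KO replicate 3 again stood lowest, at less than replicates 1 and 2 but above both controls. Elf3 (ENSMUSG00000003051) rose 17.9-fold (log2 fold change 4.16, SE 0.52, edgeR adjusted p = 0.000495). Its SE was the largest of the 10, and the log2 value ran from 3.48 without Control replicate 3 to 4.64 without Control replicate 1. By TPM the change was smaller: Elf3 stood at 3.90 and 0.73 TPM in Control and at 20.3, 18.8 and 9.01 TPM in PRC1 i2KO. The difference was 2.47 on log2(TPM + 1) and 3.06 on log2(TPM + 0.1) (limma adjusted p = 0.0147 and 0.0209), where a pseudocount lessens the change of low genes. The size of the rise of Elf3 thus differed between counts and TPM, and its direction and call did not.

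The Ovol genes pointed in opposite directions, with less certainty. Ovol1, known to halt the division of differentiating keratinocytes, gave 19.0 and 9.61 CPM in Control and 26.9, 34.4 and 26.6 CPM in PRC1 i2KO. The upper control, replicate 1, was nearer to PRC1 i2KO replicate 3 than to the other control. Ovol1 (ENSMUSG00000024922) rose 2.13-fold (log2 fold change 1.09, SE 0.29, edgeR adjusted p = 0.0204). The log2 value was 1.61 without Control replicate 1. The call was lost without Control replicate 3 (0.63, edgeR adjusted p = 0.0998), without PRC1 i2KO replicate 2 (0.95, adjusted p = 0.0699) and on log2(TPM + 1) (limma adjusted p = 0.0595). Its counts held fractions in 4 of the 5 libraries, as reads shared with another gene do, and the overlapping pseudogene Gm31166 stood at 1.11 CPM or less in all 5.

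Ovol2, known to repress mesenchymal genes in epithelia, gave 8.98 and 11.7 CPM in Control and 2.69, 5.12 and 8.00 CPM in PRC1 i2KO. Replicate 3 of PRC1 i2KO lay close below the lower control. Ovol2 (ENSMUSG00000037279) did not pass, at -0.95 on the log2 scale (SE 0.40, edgeR adjusted p = 0.0981), but it was called without PRC1 i2KO replicate 3 (-1.37, edgeR adjusted p = 0.0122). By TPM the ratio of Ovol2 to Ovol1 was 0.986 and 3.26 in Control and 0.193, 0.290 and 0.627 in PRC1 i2KO. The groups did not overlap, though the controls differed from each other more than the lower control differed from the highest PRC1 i2KO library.

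Gata3 gave 137 and 134 CPM in Control and 149, 152 and 182 CPM in PRC1 i2KO. All 3 PRC1 i2KO libraries were above both controls by a small margin, replicate 3 by the most. Gata3 (ENSMUSG00000015619) did not pass, at 0.25 on the log2 scale (SE 0.12, edgeR adjusted p = 0.129). It was not called with any 1 library left out. By TPM the groups of Gata3 overlapped, at 78.1 and 91.4 in Control and 80.4, 85.3 and 111 in PRC1 i2KO. Of 11 genes of the inner root sheath and hair shaft, among them trichohyalin (Tchh), 6 were tested, 2 rose and 1 fell, beside 18.8% higher and 15.1% lower over all tested genes. The summed level of the 11 genes was 71.1 and 78.7 CPM in Control and between 80.2 and 87.6 CPM in PRC1 i2KO.

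**Figure D3:**
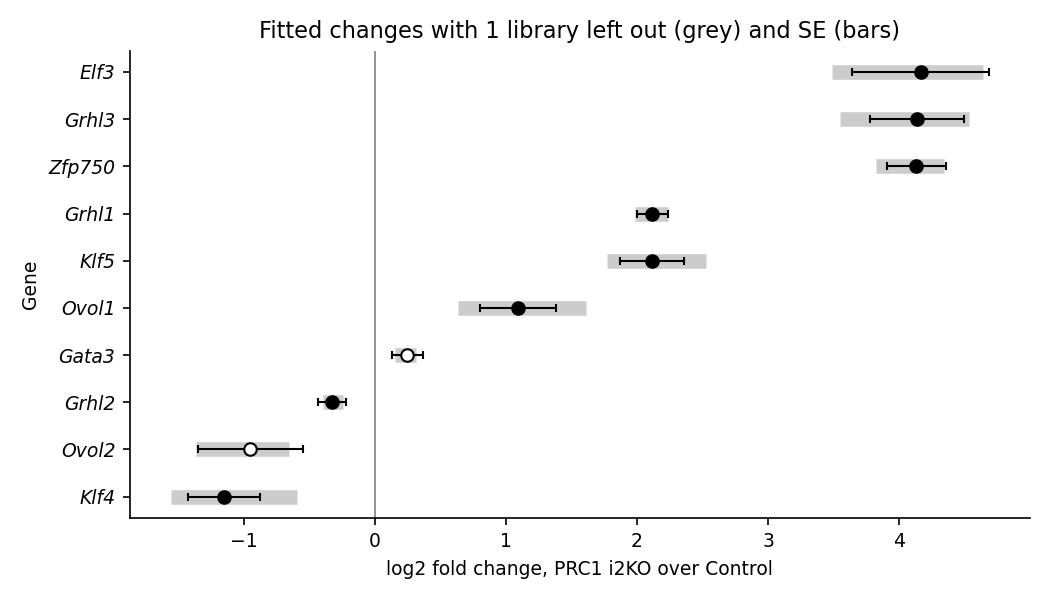
Fitted log2 fold change (PRC1 i2KO over Control) of each factor gene, with bars for the SE, grey bands for the range over fits that leave out 1 library, and open circles for the genes that did not pass. Elf3, Grhl3 and Zfp750 stand together near 4.1, Grhl1 and Klf5 near 2.1, and the bands of Klf4 and Ovol1 are wide for the size of their change.

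Ranked by level per gene length, the order of the factors differed between the groups. In Control, Klf4 (1309 and 2590 TPM) stood far above Gata3 and Grhl2, which overlapped (78.1 to 91.4 and 75.1 to 82.9 TPM). Klf5 and Grhl1 followed at a mean of 31.8 and 17.3 TPM, then Ovol2 and Ovol1 at 15.5 and 8.88 TPM, and Ovol2 overlapped both Grhl1 and Ovol1. Zfp750, Elf3 and Grhl3 were at the bottom, at 4.38, 2.32 and 1.36 TPM, and each of the 3 overlapped the next. In PRC1 i2KO, Klf4 (725 to 804 TPM) was still the highest, followed by Klf5 at a mean of 121 TPM and Gata3 at 92.2 TPM, which overlapped. Grhl1 and Zfp750 (65.6 and 65.1 TPM) and then Grhl2 (54.4 TPM) formed a middle group in which neighbours overlapped. Grhl3, Ovol1 and Elf3 lay at 18.8, 17.1 and 16.0 TPM with overlapping libraries. Ovol2 had the lowest mean, 6.13 TPM, but overlapped Elf3: in PRC1 i2KO replicate 3 Ovol2 (9.46 TPM) stood above Elf3 (9.01 TPM). Summed without Klf4, the other 9 genes gave 254 and 237 TPM in Control and between 450 and 467 TPM in PRC1 i2KO.

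Across the 5 libraries, the profiles of Grhl3 and Zfp750 were the most alike of the 45 pairs, at a distance of 0.36 in log2 CPM centred on each gene's mean (Pearson r = 0.997), followed by Grhl3 and Elf3 at 0.397 (r = 0.996) and Grhl1 and Klf5 at 0.456 (r = 0.982). These values describe 5 points that share libraries and the difference between the groups. Among 9423 other genes averaging 10 CPM or more, the nearest to Grhl3 were the cell division genes Cenpe and Ccna2, at distances of 0.206 and 0.286. The nearest to Zfp750 were Ly6e, a surface protein gene, and Slc7a2, an amino acid transporter gene, at 0.192 and 0.229. Elf3 lay nearest to Ctsc, a lysosomal protease gene, and Gjb2, a connexin gene, at 0.228 and 0.386, and Grhl1 to Acat2 and Reep6 at 0.124 and 0.129. Klf5 was followed most closely by Ifitm3 and Atp6v1c2 (0.228 and 0.247), and Klf4 by Ndrg1 and Dact1 (0.238 and 0.259).

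In 7 of the 10 genes PRC1 i2KO replicate 3 was the library of its group nearest to the Control mean (log2 CPM), the exceptions being Grhl1 and Klf4 (replicate 2) and Gata3 (replicate 1). The same library was nearest in 58.5% of all called genes, so this share is not particular to the factors. The same library had the highest Cd34 and Krt15 levels of its group, and its summed level of 12 bulge markers was 11614 CPM, against 7847 and 8274 CPM in replicates 1 and 2 and 27110 and 30125 CPM in Control. Whether the remaining bulge transcripts and the lower levels of Grhl3, Zfp750 and Elf3 in that library are linked was not tested. Control replicate 1 was the control nearer to the PRC1 i2KO mean in 8 of the 10 genes, and in 57.3% of all called genes.

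Relatives of these factors were read in the same way. Of 30 relatives (other Klf, Elf, Gata and grainyhead-like CP2 genes, with Ehf, Spdef and Ovol3), 22 were tested, 4 rose, 3 fell and 15 did not pass. That is 31.8% called, beside 33.9% of all tested genes, and their median log2 fold change was 0.16. The 4 that rose were Gata6, Elf5, Ehf and Klf13. Gata6, a factor of the upper follicle and sebaceous duct, gave 4.43 and 5.72 CPM in Control and 109, 122 and 82.8 CPM in PRC1 i2KO (19.8-fold, edgeR adjusted p = 2.09e-06). Ehf and Elf5 are the epithelial ETS genes most like Elf3. Ehf, named after its values were seen, gave 2.95 and 0.68 CPM in Control and 94.4, 101 and 49.0 CPM in PRC1 i2KO (edgeR adjusted p = 0.0051). Elf5 had 0 reads in both controls and 237 reads over the PRC1 i2KO libraries. That is at least 63.7-fold higher against a floor of 3 reads summed over Control (edgeR adjusted p = 0.000137). Elf4, a relative also expressed in blood cells and named after its values were seen, fell 1.44-fold (edgeR adjusted p = 0.00606; 0.0582 without Control replicate 1).

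Among the other Klf genes, Klf3, a repressor, fell 1.58-fold (edgeR adjusted p = 0.00256) and Klf13 rose 1.44-fold (edgeR adjusted p = 0.00345). Neither was called on log2(TPM + 1) (limma adjusted p = 0.0543 for Klf3 and 0.0550 for Klf13) or on log2(TPM + 0.1) (0.0555 and 0.0543). Klf15, named after its values were seen, fell 1.77-fold (edgeR adjusted p = 0.0385), a call lost whichever control, or PRC1 i2KO replicate 1 or 2, was left out (adjusted p from 0.0901 to 0.147). Without Control replicate 1, 7 relatives rose and 1 fell.

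A list of 26 other regulators of keratinocyte fate divided evenly, with 9 that rose, 9 that fell and 8 that did not pass, a median log2 fold change of 0.11. The share called was 69.2%, beside 33.9% of all tested genes. Cebpa, which slows division in basal keratinocytes, rose 4.55-fold, from 43.8 and 42.9 CPM to between 196 and 198 CPM (edgeR adjusted p = 8.32e-07). Maf, a basic leucine zipper factor, fell 6.0-fold, from 320 and 334 CPM to between 49.8 and 61.0 CPM (edgeR adjusted p = 6.40e-07). Rbpj, the DNA-binding partner of Notch, fell 2.56-fold (edgeR adjusted p = 1.18e-05). Further genes are named here after their values were seen. Tfap2c rose 9.81-fold and its paralog Tfap2b fell 2.75-fold (edgeR adjusted p = 7.35e-05 and 2.74e-05). Trp63, the gene of p63, fell 1.53-fold from 1184 and 1197 CPM to between 744 and 802 CPM (edgeR adjusted p = 0.00121). When Control replicate 3, or replicate 1 or 2 of PRC1 i2KO, was dropped, 5 regulators fell in place of 9.

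Lists of cornified envelope and epithelial junction genes came next, and whether the factors act on them here was not tested. Of 33 cornified envelope and suprabasal genes, 31 were tested, 23 rose, 2 fell and 6 did not pass, with a median log2 fold change of 1.82. Those called made up 80.6% of those tested, beside 33.9% over all tested genes. Ivl (involucrin) rose 13.9-fold from 1.85 and 2.55 CPM to between 26.6 and 41.1 CPM (edgeR adjusted p = 1.05e-05). Dsg1a, a desmosomal cadherin gene, rose 3.96-fold and Spink5, a protease inhibitor gene of the barrier, rose 3.88-fold (edgeR adjusted p = 2.43e-06 and 8.96e-06). The 2 genes that fell were Tgm5 and Aloxe3. Tgm5, a transglutaminase gene, fell 8.25-fold from 961 and 796 CPM to between 91.4 and 128 CPM (edgeR adjusted p = 2.32e-06). Aloxe3, a lipoxygenase gene named after its values were seen, fell 2.47-fold (edgeR adjusted p = 0.0139; lost when Control replicate 3, or replicate 1 or 2 of PRC1 i2KO, was dropped, adjusted p from 0.0532 to 0.14, and on log2(TPM + 1), limma adjusted p = 0.0871).

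Of 31 epithelial junction and epithelial splicing genes, 29 were tested, 18 rose, 3 fell and 8 did not pass, with a median log2 fold change of 1.07. Here 72.4% of the tested genes were called, beside 33.9% over all tested genes. Cldn4, a tight junction claudin gene known as a Grhl2 target, rose 16.1-fold from 2.95 and 1.71 CPM to between 32.6 and 36.3 CPM (edgeR adjusted p = 4.82e-06). Grhl2 itself stood slightly lower, with a call at the threshold, while Grhl1 and Grhl3 stood higher. Whether any of these factors changed Cldn4 was not tested. Prom2, Lsr and Epcam rose 4.04-fold, 3.41-fold and 2.77-fold (edgeR adjusted p = 2.87e-06, 2.15e-05 and 1.20e-05); Epcam was also a gene of the sort gate. The 3 that fell, named after their values were seen, were Dsp, F11r and Pkp3, at 1.81-fold, 1.49-fold and 1.36-fold lower (edgeR adjusted p = 0.00078, 0.00523 and 0.0187). Dropping Control replicate 1 ended the call of F11r (adjusted p = 0.063), and Pkp3 lost its call when Control replicate 3 (0.133) or replicate 1 (0.0963) or 2 (0.109) of PRC1 i2KO was dropped.

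Of 18 genes listed for the mesenchymal state, 12 were tested, 1 rose, 5 fell and 6 did not pass. The median log2 fold change of those tested was -0.66, and 50% were called, beside 33.9% of all tested genes. Ovol and Grainyhead-like factors are known to restrain mesenchymal genes, but whether they act on those listed was not tested. Fn1, the fibronectin gene, rose 8.04-fold from 44.6 and 40.0 CPM to 259, 283 and 475 CPM (edgeR adjusted p = 0.00136). Sparc, Tgfbi and Mmp2, genes of the extracellular matrix, fell 9.22-fold, 3.64-fold and 2.56-fold (edgeR adjusted p = 0.000704, 4.94e-05 and 0.00131), Mmp2 only on counts (limma adjusted p = 0.275 on log2(TPM + 1)). Snai2 and S100a4 also fell, named after their values were seen: Snai2, a Snail family repressor gene, 1.98-fold and S100a4 56.9-fold (edgeR adjusted p = 0.00299 and 0.00646). In Control, mean levels of the genes that fell were 1662 CPM for Tgfbi, 456 for Sparc, 406 for S100a4, 94.8 for Snai2 and 33.0 for Mmp2. Zeb1, which did not pass, stood at a mean of 0.742 CPM there. Zeb2, Twist1 and Twist2 had too few reads to test.

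**Figure D4:**
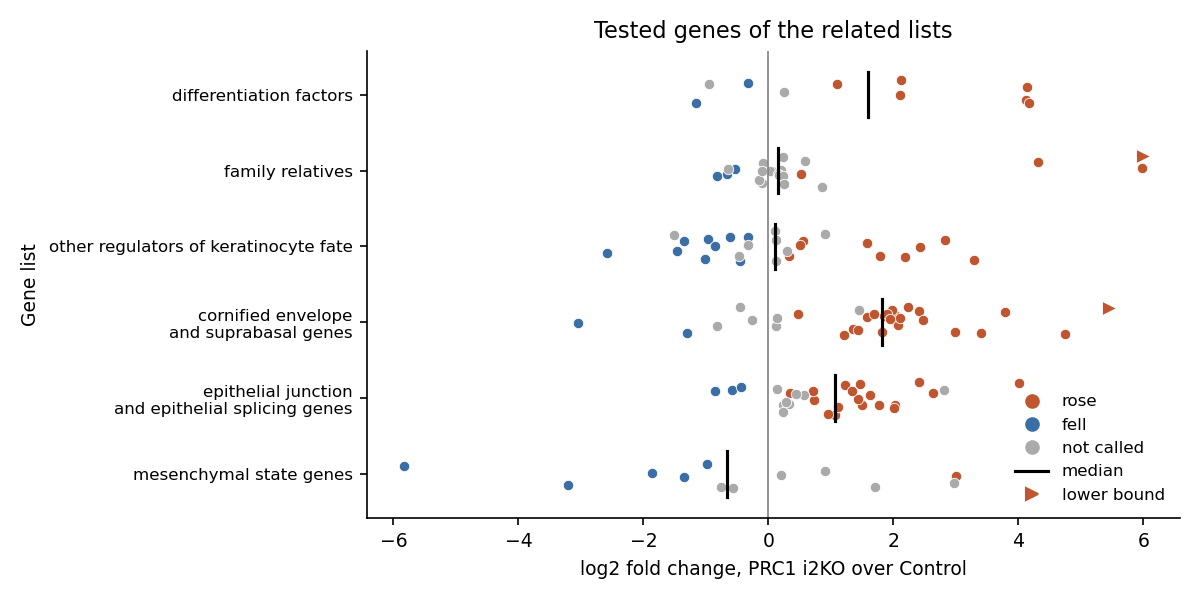
Log2 fold change (PRC1 i2KO over Control) of every tested gene in the factor set and in the 5 related lists, coloured by call, with a black line at each list's median and triangles for genes with 0 reads in Control, drawn at their lower bound. The medians are 1.60 for the factors, 0.16 and 0.11 for the relatives and other regulators, 1.82 and 1.07 for the cornified and junction genes and -0.66 for the mesenchymal genes.

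Markers of neighbouring cell types moved beside the factors, and their part in the results was not tested. For the counts below, 18.8% of all tested genes rose and 15.1% fell. The summed level of 9 infundibulum and junctional zone markers was 1500 and 1438 CPM in Control and between 8780 and 8938 CPM in PRC1 i2KO, with 8 higher and 1 lower. All 12 sebaceous gland markers rose, from a sum of 556 and 530 CPM to between 3392 and 4046 CPM. Of the 9 suprabasal markers, all but Krt77 were already counted in the cornified envelope and suprabasal list above. All 9 rose, from a sum of 1258 and 1257 CPM to between 2701 and 3893 CPM. That sum was highest in PRC1 i2KO replicate 3, where Krt10, Sbsn and Krt77 gave 1145, 1027 and 1007 CPM. Lor and Krtdap were also highest there, Ivl in replicate 1 and Krt1 in replicate 2. Dsg1a and Dsc1 were lowest of the group in replicate 3, as were Grhl3, Zfp750 and Elf3. All 8 markers of cycling cells rose, from 137 and 101 CPM to between 518 and 714 CPM. Among 10 markers of T and innate lymphoid cells, which also use Gata3, 2 were tested and 1 rose, Thy1, which was named after its values were seen and gave 6.03 and 4.51 CPM in Control and 12.5, 9.69 and 14.1 CPM in PRC1 i2KO (edgeR adjusted p = 0.00975; 0.0899 without Control replicate 3, and limma adjusted p = 0.11 on log2(TPM + 1)). Their summed level was 6.65 and 5.72 CPM in Control and between 11.3 and 16.2 CPM in PRC1 i2KO. Cd3d and Gzmb had no read in any library. Cd3e, Cd3g, Trac and Trdc stood at or below 0.423 CPM. Of 8 Langerhans cell and macrophage markers 3 rose, with sums of 44.2 and 36.9 CPM in Control and between 107.5 and 152 CPM in PRC1 i2KO, while Lyz2 was at 0. The 3 were Cd74, H2-Aa and H2-Ab1, and Cd74 alone gave 64.3 to 96.3 CPM in PRC1 i2KO. Cd207, Csf1r and Itgam, named after their values were seen, did not pass (edgeR adjusted p = 0.841, 0.711 and 0.0652). Fibroblast markers summed to 73.8 and 71.8 CPM in Control and between 32.7 and 33.0 CPM in PRC1 i2KO (1 of 6 rose and 3 fell). Of 5 sweat duct and mammary luminal markers 1 rose and 1 fell, with sums of at most 8.12 CPM. Of 6 melanocyte markers 1 rose and 1 fell, and of 4 endothelial markers none was called, with a sum of at most 3.42 CPM.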

How the data were processed

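Polyadenylated RNA of 50000 sorted cells per sample was sequenced, per the labels' protocols. The authors deposited 1 table of expected counts (estimated reads per gene, unscaled) and of TPM for 5 libraries. Tools named in the submitters' processing notes are STAR 2.7.9a, RSEM 1.3.3 and DESeq2 1.38.2, and the build is mm39, without roles. For strandedness and annotation, nothing is given in the sources used here. The control called replicate 3, after its title and column, has another number in its description. No library pair was alike within sampling noise by chi-square.

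Counts were rounded, filtered with filterByExpr, scaled by TMM and fitted with edgeR 4.0.16 (R 4.3.3; robust quasi-likelihood F test, genotype as the only term), with Benjamini-Hochberg adjustment over 15665 genes and a threshold of 0.05. The SE is the log2 fold change divided by the square root of F. Floors of 3 reads cover counting error only. Distances used log2 CPM with a prior count of 2. Alternatives were DESeq2 1.42.0, other scaling and filters, limma 3.58.1 on log2(TPM + 1) and log2(TPM + 0.1), each library left out, and replicate blocks. The fit was tested on simulated counts under 2 dispersion settings, the second adopted after the first had given more false calls. In both, the share of false calls was above the threshold of 0.05, so calls near it are less certain than their adjusted p states.

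The factor genes and the lists were chosen with earlier results of these data known, and the promoter motifs after the sequences had been read. Named genes were the 10 factors, up to 4 called genes per list with the smallest adjusted p, genes marking the state of the cells, and the 2 nearest genes per factor; others are marked in the text as named after their values were seen. Of the genes so chosen, 2 are not reported here. Promoters are on GRCm38.p6 and overlaps between genes come from GENCODE M21, not the build of the counts.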

Additional observations from a re-analysis of the deposited data

How the results depend on the processing

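Every factor gene kept the sign of its log2 fold change in all 14 alternatives, and Grhl1, Grhl3, Klf5, Zfp750 and Elf3 were called in each of them. The fall of Grhl2 was not called by DESeq2 (log2 fold change -0.32), with library totals (-0.30), on log2(TPM + 0.1) (-0.55) or with a replicate block by title number (-0.34), and ran from -0.40 to -0.25 with 1 library left out. Ovol1 was not called on log2(TPM + 1) (0.92) or log2(TPM + 0.1) (1.00), and ran from 0.63 to 1.61. Ovol2 was called with no filter (-0.95) and with a replicate block by description number (-1.42), and ran from -1.37 to -0.66. Klf4 was not called with no filter (-1.16) or with the block by description number (-1.01), and ran from -1.56 to -0.59. The cause of these changes was not tested.

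Of the 2 factors that fell, 1 stayed called by DESeq2, with library totals, on log2(TPM + 0.1), with no filter and with either replicate block. With 1 PRC1 i2KO library left out, 1 of the 2 also stayed called. That was Klf4 without replicate 1 or 2, and Grhl2 without replicate 3, where Ovol2 was called as well. With 1 library left out, relatives numbered 4 to 7 higher and 1 to 3 lower, other regulators 5 to 12 lower, cornified genes 1 to 3 lower and mesenchymal genes 1 to 2 higher. Under DESeq2, library totals, RLE factors, no filter, the stricter filter, both TPM scales and the block by title number, 2 mesenchymal genes rose in place of 1. On log2(TPM + 1) the median gene moved by -0.13, and 1866 genes rose and 2211 fell in place of 2939 and 2371, so that changes on that scale are relative to this shift. Without Control replicate 3, 1359 genes fell.

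Whether the numbers in the titles mark a pairing could not be decided. Deviations from the group means (log2 CPM) correlated at 0.0737 for the libraries numbered 1 and 0.115 for those numbered 3. Pairs of unlike number gave values from -0.115 to 0.0432. With only 2 controls, the deviations of each control mirror those of the other, so these values carry little information. The replicate block by title number gave 4421 calls over all genes and that by description number 5314, in place of 5310. With 2 controls, of which replicate 1 is the shallowest library, changes as small as those of Grhl2 and Gata3 are below what these data reliably resolve. In the simulated counts under the adopted dispersion setting, 25.4% of 1.5-fold and 52.2% of 2-fold changes were recovered. A gene that did not pass may therefore still have changed.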
